A study of Mus musculus with 8 samples.

Results

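The genes described here are 4 subunits of the transcription factor NF-kB (Rela, Nfkb1, Nfkb2, Relb), 1 kinase that activates it (Ikbkb), 4 genes that restrain or modulate it (Nfkbia, Nfkbib, Nfkbiz, Tnfaip3) and the adhesion molecule Icam1, a classical target. They were chosen by name, as the rows of the gene expression table whose symbol equals one of these 10, and each symbol matched 1 of the 34745 rows. The study sequenced oligo(dT)-enriched RNA of freshly isolated mouse hepatocytes. All mice were wild-type males and all carried a viral vector, either AAV-Trib3, an adeno-associated virus with the mouse Trib3 gene (4 libraries), or AAV-GFP, the control virus (4 libraries). The protocol, the same text for all libraries, names only the Trib3 virus, of serotype AAV8, given at 6 weeks of age, with isolation of the cells 4 weeks later. The promoter that drives the transgenes is not given in the sources used here, and the labels number the libraries without saying that each came from its own mouse, so p-values measure the spread between these libraries.

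NF-kB is a family of dimers that wait in the cytoplasm bound to inhibitors of the IkB family. Signals from receptors for TNF, IL-1 and bacterial products activate the IkB kinase complex, which marks IkB for destruction and frees the dimer of p65 (Rela) and p50 (Nfkb1) to enter the nucleus. A slower, noncanonical branch turns p100 (Nfkb2) into p52, which pairs with RelB. The freed dimers switch on their own inhibitors, among them IkB-alpha (Nfkbia) and A20 (Tnfaip3), together with genes such as Icam1. In the liver the pathway protects hepatocytes from death caused by TNF and takes part in the acute phase response. Trib3 encodes a pseudokinase, and the human protein has been described as a binding partner of p65, which makes these transcripts of interest when Trib3 is raised.

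Promoter windows were taken from RefSeq (build GRCm38.p6, from 250 bases before to 50 bases after each annotated start), which had an entry for 6 of the 10 genes: Icam1, Nfkb2, Nfkbia, Nfkbib, Rela and Tnfaip3. Those of the 3 feedback and target genes are shown because each held the same 9 bases, GGAAATTCC or its reverse complement GGAATTTCC, in capitals below, while the windows of Rela, Nfkbib and Nfkb2 did not. The sequences run 5′ to 3′ along the strand of the gene, on chr9:21015690-21015989 (plus strand) for Icam1, chr12:55492598-55492897 (minus strand) for Nfkbia and chr10:19015361-19015660 (minus strand) for Tnfaip3.
Icam1: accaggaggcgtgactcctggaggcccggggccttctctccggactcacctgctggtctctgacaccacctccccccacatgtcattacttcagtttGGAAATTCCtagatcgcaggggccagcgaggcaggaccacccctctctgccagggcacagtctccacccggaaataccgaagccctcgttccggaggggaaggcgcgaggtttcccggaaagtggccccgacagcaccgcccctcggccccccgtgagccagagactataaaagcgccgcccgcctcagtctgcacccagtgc
Nfkbia: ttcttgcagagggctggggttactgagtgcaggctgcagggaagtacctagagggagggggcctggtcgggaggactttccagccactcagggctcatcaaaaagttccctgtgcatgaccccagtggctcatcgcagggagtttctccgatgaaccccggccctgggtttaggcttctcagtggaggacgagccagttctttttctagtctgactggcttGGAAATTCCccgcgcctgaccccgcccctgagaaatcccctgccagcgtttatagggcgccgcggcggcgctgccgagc
Tnfaip3: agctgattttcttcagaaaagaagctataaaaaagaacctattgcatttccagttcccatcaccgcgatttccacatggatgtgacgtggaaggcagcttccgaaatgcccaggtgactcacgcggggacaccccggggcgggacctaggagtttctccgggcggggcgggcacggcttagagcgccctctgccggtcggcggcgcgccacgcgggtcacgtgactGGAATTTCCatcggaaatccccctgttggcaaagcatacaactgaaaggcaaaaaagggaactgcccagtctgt
The first capital stood at −153 relative to the RefSeq start in Icam1, at −29 in Nfkbia and at −24 in Tnfaip3, where the motif read in the reverse direction. By the locus of the deposited table, Tnfaip3 begins at 19015657, near the 5′ end of its window, so its capitals lie inside that locus. The motif was picked after the sequences had been seen, and 104 of all 32851 promoter windows (0.317%) held it on either strand. The broader kappaB consensus of 10 bases, searched on both strands, occurred in 8.46% of all windows. In Nfkbia it was found once, overlapping the capitals, and in the printed window of Tnfaip3 at 2 positions; a second annotated start of Tnfaip3 held neither. It was found at 3, 2 and 1 positions in the 3 windows of Nfkb2 and at none in Icam1, Rela or Nfkbib. A match describes letters in the window and does not show that a factor binds there.

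Libraries held between 11350442 and 15361128 counts. Levels are given as CPM, counts scaled to a common library total and by TMM factors, which adjust for library composition. As a check of the labels, Trib3 ranged from 20.2 to 67.2 CPM in the AAV-Trib3 libraries and from 1.10 to 3.36 CPM in the controls (log2 fold change 4.17 ± 0.47 SE; edgeR adjusted p = 0.0675). In AAV-GFP replicate 2, mitochondrial transcripts took 32.0% of counts, against 14.9% to 18.5% in the other libraries. Hepatocyte markers were abundant throughout, with Alb between 48600 and 108000 CPM, and 7 of 8 listed markers matched a row. The 12 Kupffer cell and macrophage markers, all detected, summed to between 9.10 and 84.7 CPM in AAV-GFP and between 12.1 and 105 CPM in AAV-Trib3, highest in replicates 2 and 4 of AAV-GFP and replicates 1 and 4 of AAV-Trib3.

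None of these genes passed the test of a difference between AAV-Trib3 and AAV-GFP. Of the 10, 9 had enough counts to be tested, and 0 passed an adjusted p of 0.05 in edgeR's quasi-likelihood test, as did 0% of the 11036 genes tested. At an unadjusted p under 0.05 the count was also 0 of 9, against 3.14% of all tested genes. DESeq2 and limma-voom called 0 of the 9 as well, while DESeq2 called 0.0635% of all genes. The estimate lay above 0 for 3 genes (Ikbkb, Icam1, Nfkbia) and below 0 for 6, where 47.9% of all tested genes lay above 0, with a median log2 fold change of −0.08 against −0.01 over all tested genes. In 0 of the 10 genes did the libraries of one group all lie above those of the other, a separation seen in 2.29% of tested genes. Every adjusted p of these 9 genes was 0.9995 in edgeR. The precision differed between genes, and the 95% intervals tell how large a difference these libraries could have hidden.

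**Figure D1:**
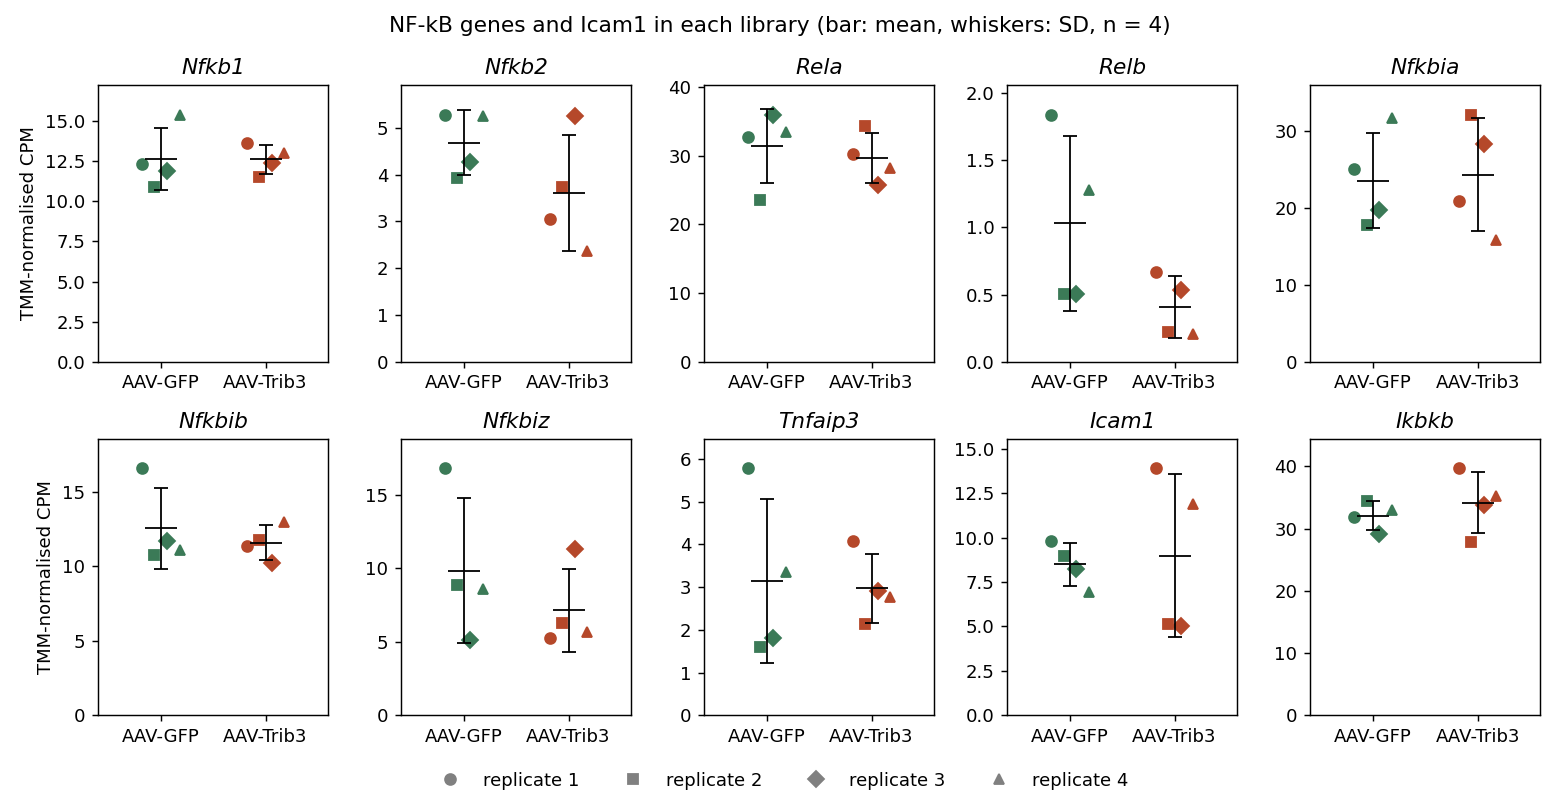
TMM-normalised CPM (vertical axis, from 0) of each of the 10 genes in the 4 AAV-GFP and the 4 AAV-Trib3 libraries; marker shapes give the replicate number, the bar the mean and the whiskers the SD. The groups overlap in every panel, and Icam1 in AAV-Trib3 splits into 2 libraries near 5 CPM and 2 above 11 CPM.

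Rela (ENSMUSG00000024927, chr19:5637483-5648130, plus strand; loci are those of the deposited table on mm10) encodes p65, the subunit that activates transcription in the canonical dimer. It stood at 32.7, 23.6, 36.0 and 33.5 CPM in AAV-GFP replicates 1 to 4 and at 30.3, 34.3, 25.8 and 28.2 CPM in AAV-Trib3 replicates 1 to 4. The lowest value was that of AAV-GFP replicate 2, and the AAV-Trib3 libraries lay within the AAV-GFP range. That library alone set the lower end of the range, and the other AAV-GFP libraries lay between 32.7 and 36.0 CPM. The log2 fold change was −0.09 ± 0.16 (SE), with a 95% interval of −0.44 to 0.27. It ran from −0.20 with AAV-GFP replicate 2 left out to −0.02 with AAV-GFP replicate 3 left out.

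Nfkb1 (ENSMUSG00000028163, chr3:135584655-135691547, minus strand) encodes p105, the precursor of p50. Its levels were 12.3, 10.9, 11.9 and 15.4 CPM in AAV-GFP and 13.6, 11.5, 12.4 and 13.0 CPM in AAV-Trib3. They differed by at most 1.41 times over the 8 libraries, the narrowest span among the 10 genes. With a log2 fold change of −0.01 ± 0.15 (SE; 95% interval −0.33 to 0.32), the interval ran from 0.794-fold to 1.25-fold. Leaving out AAV-GFP replicate 4 gave 0.10.

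The noncanonical subunits were lower in abundance and less certain. Nfkb2 (ENSMUSG00000025225, chr19:46304737-46312090, plus strand), the gene of p100 and p52, stood at 5.28, 3.92, 4.26 and 5.25 CPM in AAV-GFP and at 3.05, 3.74, 5.26 and 2.36 CPM in AAV-Trib3. In AAV-Trib3, 3 libraries lay below all AAV-GFP libraries and replicate 3 lay among them. The log2 fold change was −0.38 ± 0.27 (SE; 95% interval −0.98 to 0.21; unadjusted p = 0.184 in edgeR). Leaving out AAV-Trib3 replicate 3 gave −0.62 (edgeR unadjusted p = 0.0366, adjusted p = 1), and leaving out replicate 4 of that group gave −0.23.

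Relb (ENSMUSG00000002983, chr7:19606217-19629438, minus strand), the partner of p52, was too low to pass the filter on low counts. Its counts were 22, 5, 7 and 21 in AAV-GFP and 11, 3, 7 and 3 in AAV-Trib3. Before TMM scaling these gave 1.94 CPM in the highest library, AAV-GFP replicate 1 (exact 95% Clopper-Pearson bounds 1.21 and 2.93), and 0.216 CPM in the lowest, AAV-Trib3 replicate 4 (bounds 0.0445 and 0.63). Such bounds cover counting error only. With no filter on low counts the log2 fold change was −1.32 ± 0.65 (SE; edgeR adjusted p = 0.954), from groups that overlapped.

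The balance of the branches within each library, which does not depend on scaling between libraries, was compared as the log2 ratio of Nfkb2 plus Relb counts to Nfkb1 plus Rela counts. It was −2.65, −2.95, −3.32 and −2.90 in AAV-GFP and −3.55, −3.52, −2.71 and −3.98 in AAV-Trib3. The difference of the means was −0.49, and an exact two-sided permutation test gave p = 0.171 (Benjamini-Hochberg adjusted over the 2 ratios tested, 0.343). AAV-Trib3 replicate 3 was again the library that lay among the AAV-GFP values. The smallest p that 4 against 4 libraries allow is 0.0286.

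Ikbkb (ENSMUSG00000031537, chr8:22659212-22706589, minus strand) encodes IKK-beta, the catalytic subunit that phosphorylates IkB in the canonical branch. It had 31.8, 34.5, 29.1 and 33.0 CPM in AAV-GFP and 39.7, 27.8, 33.8 and 35.2 CPM in AAV-Trib3. AAV-Trib3 held both the highest value, in replicate 1, and the lowest, in replicate 2, so its range enclosed that of AAV-GFP. Its log2 fold change of 0.09 ± 0.14 (SE; 95% interval −0.22 to 0.39) had the smallest SE of the 9 genes.

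Nfkbia (ENSMUSG00000021025, chr12:55489411-55492647, minus strand) encodes IkB-alpha, the main inhibitor of the p65 dimer and one of its most rapid targets. It stood at 25.1, 17.8, 19.8 and 31.7 CPM in AAV-GFP and at 21.0, 32.2, 28.4 and 15.9 CPM in AAV-Trib3. Both groups spanned nearly the same range. Within AAV-Trib3, replicates 2 and 3 were high and replicates 1 and 4 low. Between the groups, the log2 fold change was 0.04 ± 0.25 (SE; 95% interval −0.52 to 0.60), and it lay between −0.12 and 0.22 with any 1 library left out. Set against Rela in the same library, the log2 ratio of counts was −0.38, −0.41, −0.86 and −0.08 in AAV-GFP and −0.53, −0.09, 0.14 and −0.83 in AAV-Trib3. Its group means were −0.43 ± 0.32 and −0.33 ± 0.43 (SD, n = 4), with an exact two-sided permutation p of 0.714 (also 0.714 adjusted over the 2 ratios).

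Nfkbib (ENSMUSG00000030595, chr7:28758251-28767512, minus strand) encodes IkB-beta, an inhibitor that responds more slowly. It stood at 16.6, 10.8, 11.7 and 11.1 CPM in AAV-GFP and at 11.4, 11.8, 10.2 and 13.0 CPM in AAV-Trib3. AAV-GFP replicate 1 was far above the others of its group, and all other libraries lay between 10.2 and 13.0 CPM. Its log2 fold change of −0.11 ± 0.17 (SE; 95% interval −0.50 to 0.27) became 0.05 without that library. In GENCODE M21 the gene overlaps Sirt2 and Ccer2 on the opposite strand. With no strand setting given for the counting, reads in the shared stretches cannot be told apart. Sirt2 had 30.8 CPM in AAV-GFP replicate 1, within its range of 26.0 to 32.1 CPM over the 8 libraries. The level of Ccer2 was not examined.

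Nfkbiz (ENSMUSG00000035356, chr16:55811375-55838899, minus strand) encodes IkB-zeta, an atypical nuclear family member that helps activate a subset of inflammatory genes. It stood at 16.8, 8.84, 5.13 and 8.60 CPM in AAV-GFP and at 5.24, 6.30, 11.3 and 5.67 CPM in AAV-Trib3. AAV-GFP replicate 1 was highest, with AAV-Trib3 replicate 3 next. This gene had the largest estimate among the 9, a log2 fold change of −0.47 ± 0.37 (SE; 95% interval −1.29 to 0.36), and 9.69% of all tested genes had a larger one in either direction. The estimate was −0.08 with AAV-GFP replicate 1 left out and −0.78 with AAV-Trib3 replicate 3 left out.

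Tnfaip3 (ENSMUSG00000019850, chr10:19000910-19015657, minus strand) encodes A20, a ubiquitin-editing enzyme that shuts the pathway off upstream of the kinase. It stood at 5.78, 1.61, 1.81 and 3.36 CPM in AAV-GFP and at 4.08, 2.13, 2.90 and 2.77 CPM in AAV-Trib3, on 16 to 69 counts. The AAV-GFP libraries were spread more widely than those of AAV-Trib3 and enclosed them. Its log2 fold change was −0.08 ± 0.41 (SE), with a 95% interval from −1.0 to 0.84, the widest of the 9. Without AAV-GFP replicate 1 the estimate was 0.38.

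Icam1 (ENSMUSG00000037405, chr9:21015960-21028797, plus strand) encodes a cell-surface ligand of leukocyte integrins that hepatocytes, endothelial cells and macrophages can all express. It stood at 9.81, 8.94, 8.23 and 6.96 CPM in AAV-GFP and at 13.9, 5.13, 5.03 and 11.9 CPM in AAV-Trib3. Group means were 8.48 ± 1.21 and 9.0 ± 4.6 CPM (SD, n = 4), but the AAV-Trib3 libraries lay on both sides of all AAV-GFP libraries and none lay among them. The log2 fold change was 0.09 ± 0.34 (SE; 95% interval −0.66 to 0.84), and it ran from −0.20 with AAV-Trib3 replicate 1 left out to 0.29 with AAV-Trib3 replicate 3 left out. AAV-Trib3 replicates 1 and 4, high in Icam1, were the low libraries of Nfkbia in that group.

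Other transcripts were high and low in the same AAV-Trib3 libraries as Icam1. This split was singled out after the values were seen, and the share of all tested genes that follow it was not counted. Over the tested genes as a whole, the chi-square per degree of freedom, lower for libraries more alike, was 17.1 between replicates 1 and 4. It was 48.3 between replicates 2 and 3 and 72.9 to 82.2 for the other pairs of that group. In replicates 1 to 4 of AAV-Trib3 the 11 listed acute phase genes summed to 32000, 11900, 11500 and 31200 CPM. In AAV-GFP the sum ran from 10500 to 18300 CPM. Lcn2, a secreted siderophore binder known as an NF-kB target, had 270, 4.62, 3.43 and 159 CPM in the same order, and 4.39 to 42.0 CPM in AAV-GFP. Of the other tested genes in the list of known NF-kB targets described below, Vcam1, Gadd45b and Csf1 were also highest in replicates 1 and 4. Cxcl1, Cxcl10, Sod2, Bcl2l1 and Cflar were not, and Cflar had 80.2, 139, 92.6 and 63.6 CPM. The margin of Vcam1 was small, at 3.11 CPM in replicate 4 and 3.05 CPM in replicate 3. The macrophage markers followed the split of Icam1, with sums of 105, 12.1, 24.2 and 68.8 CPM. In AAV-GFP they did not: their sums of 12.7, 84.7, 9.10 and 77.8 CPM went with the 4 Icam1 values given above, which were not higher in replicates 2 and 4. Sinusoidal endothelial markers summed to 43.2, 30.9, 24.3 and 33.1 CPM in AAV-Trib3, and other leukocyte markers to 10.8, 1.25, 4.73 and 6.28 CPM. Both sums were also highest in replicates 1 and 4. Among the endothelial genes, Stab2, Lyve1 and Cdh5 followed this split, while Pecam1, Kdr and Clec4g did not. Pecam1 had 2.86, 2.86, 2.44 and 1.55 CPM. Stellate markers, with sums of 13.3, 15.7, 11.7 and 14.0 CPM, and cholangiocyte markers, with 14.9, 7.11, 28.1 and 21.9 CPM, did not follow it either. Hepatocyte markers were lowest in replicates 1 and 4, with sums of 66500, 93500, 113000 and 69100 CPM. Trib3 itself was also lowest in replicates 1 and 4, at 27.9, 62.6, 67.2 and 20.2 CPM in AAV-Trib3 replicates 1 to 4. In AAV-GFP the ranges were 12.9 to 59.3 CPM for endothelial, 1.52 to 8.44 CPM for other leukocyte and 70000 to 139000 CPM for hepatocyte markers. The part of these cells, of the acute phase state and of the Trib3 level in the Icam1 values was not tested. In RNA from bulk cells, a different number of cells and a different level per cell cannot be told apart.

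**Figure D2:**
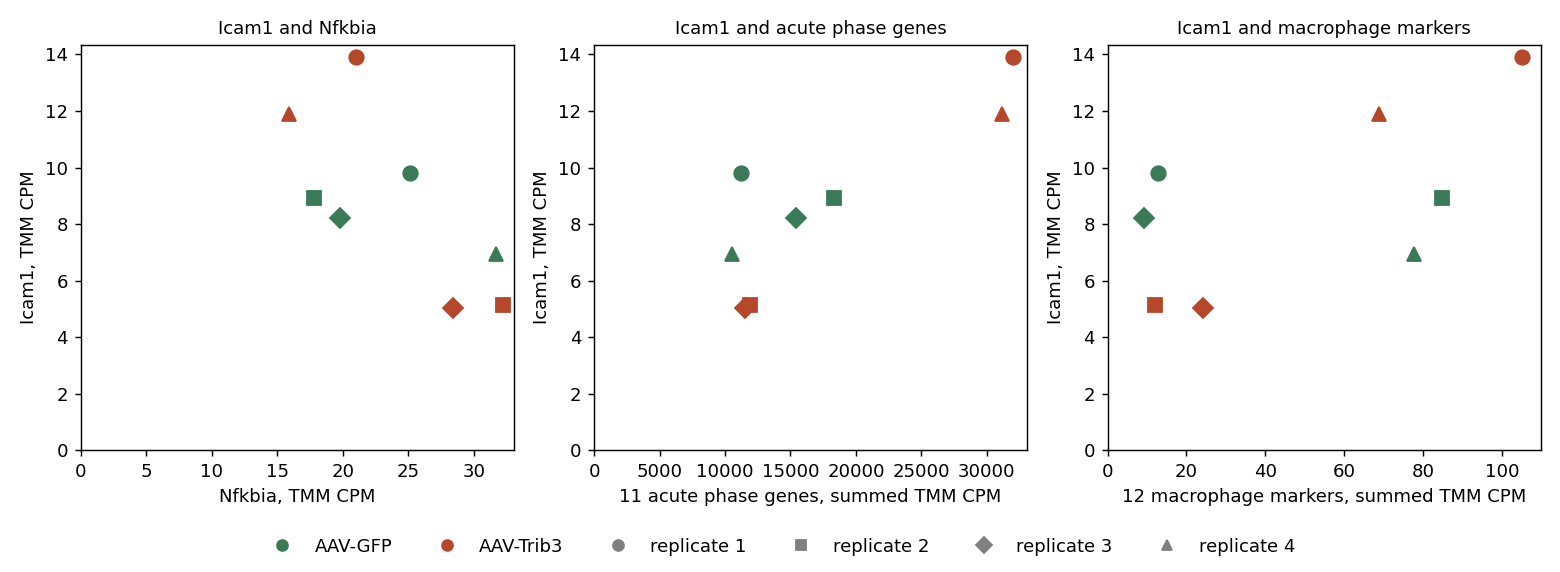
Icam1 in TMM CPM (vertical axes) in each of the 8 libraries against Nfkbia, the sum of 11 acute phase genes and the sum of 12 macrophage markers (horizontal axes, TMM CPM), coloured by group with marker shapes for the replicate number. AAV-Trib3 replicates 1 and 4 are high in Icam1, acute phase genes and macrophage markers, while AAV-GFP replicates 2 and 4 are high in macrophage markers with Icam1 at 8.94 and 6.96 CPM.

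The libraries did not rank alike across the set. AAV-GFP replicate 1 held the highest value of all 8 libraries for 5 of the 10 genes: Nfkb2, Relb, Nfkbib, Nfkbiz and Tnfaip3. Of all tested genes, 8.71% were highest in that library. Of the 52 tested genes in the 4 NF-kB pathway lists described below, 11 (21.2%) were highest in that library. In AAV-GFP replicate 3, 14 of them (26.9%) were highest, against 16.6% of all tested genes. The 11 highest in AAV-GFP replicate 1 include Bcl3, an IkB family member that acts in the nucleus, at 35.1 CPM against 9.15 to 15.6 CPM elsewhere. They also include Cxcl1, a neutrophil-attracting chemokine, with 8.91 to 49.4 CPM in the other libraries. Others of the pathway peaked elsewhere, among them Tlr5, Ikbkg, Ikbke, Commd1 and Lcn2, and Tlr3 had its lowest value in AAV-GFP replicate 1, at 1.76 CPM. AAV-GFP replicate 1 was singled out after its values were seen. Its macrophage markers summed to 12.7 CPM, near the low end of the libraries.

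**Figure D3:**
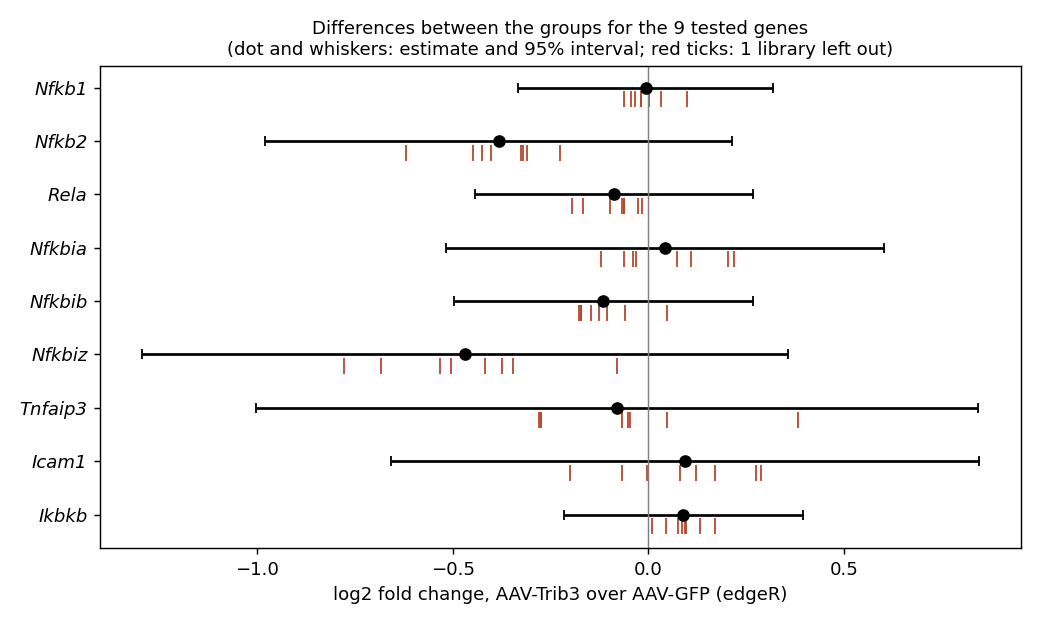
Log2 fold change of AAV-Trib3 over AAV-GFP (horizontal axis) for the 9 tested genes; dots and whiskers give edgeR's estimate with its 95% interval, and red ticks the 8 estimates made with 1 library omitted. Every interval contains 0, from the narrow one of Ikbkb (−0.22 to 0.39) to the wide one of Tnfaip3 (−1.0 to 0.84), and Tnfaip3 moves to 0.38 without AAV-GFP replicate 1.

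Levels can be compared between genes only per length. On TMM CPM per kb of the longest coding transcript in GENCODE M21, averaged over the 8 libraries, the order was Nfkbia (15.2 ± 4.0), Rela (11.2 ± 1.6), Ikbkb (8.33 ± 0.94), Nfkbib (5.86 ± 0.97), Icam1 (3.45 ± 1.23), Nfkb1 (3.07 ± 0.34), Nfkbiz (2.06 ± 0.97), Nfkb2 (1.08 ± 0.28), Tnfaip3 (0.69 ± 0.31) and Relb (0.33 ± 0.26; SD, n = 8). All neighbours in this order overlapped in their ranges over libraries, for example Nfkbia at 10.1 to 20.4 and Rela at 8.69 to 13.3 CPM per kb. The deposited FPKM gave another order, with Nfkbia (15.5) and Rela (11.5) still first, but Ikbkb at 1.37 and Nfkb1 at 0.793. Dividing the counts by the deposited FPKM gave the gene length the authors had used. It was 2716 bases for Rela and 1577 for Nfkbia, 1.00 times the longest coding transcript in both. It was 24415 bases for Ikbkb (6.14 times), 16227 for Nfkb1 (3.94 times) and 13958 for Tnfaip3 (3.16 times). A level of Ikbkb relative to Rela thus rests on the length chosen, while comparisons of one gene between libraries do not.

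**Figure D4:**
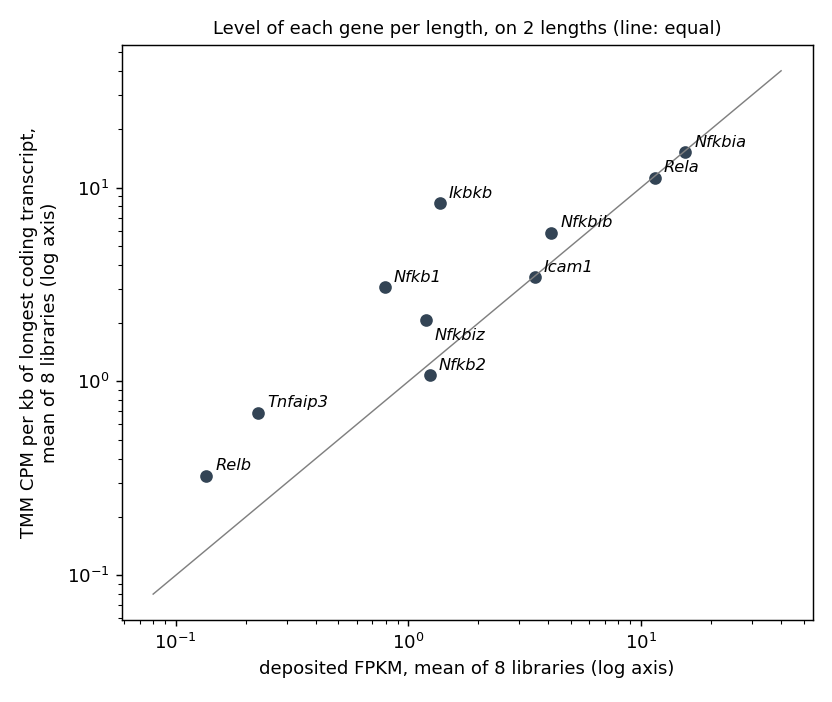
Mean level of each of the 10 genes over the 8 libraries as deposited FPKM (horizontal, log axis) and as TMM CPM per kb of the longest coding transcript (vertical, log axis); the line marks equal values. Rela, Nfkbia and Icam1 lie on the line, and Ikbkb, Nfkb1 and Tnfaip3 lie above it, where the deposited length was 3.16 to 6.14 times the longest coding transcript.

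The wider pathway was read from lists of other genes. Of 30 receptors, adaptors and kinases upstream of the IkB kinase, 28 were tested and 0 passed an adjusted p of 0.05 in edgeR. Their median log2 fold change was −0.06 against −0.01 over all genes, with 10 estimates above 0 and 18 below. At an unadjusted p under 0.05, 2 were lower and 0 higher with AAV-Trib3, against 1.78% and 1.36% of all genes. These were Tlr5, the receptor for flagellin, at 7.69 ± 2.57 against 17.4 ± 8.0 CPM (log2 fold change −1.18 ± 0.35 SE, edgeR adjusted p = 0.9995), and Tnfrsf12a, the receptor for the cytokine TWEAK, at 5.41 ± 1.27 against 8.12 ± 1.39 CPM (log2 fold change −0.58 ± 0.22 SE, edgeR adjusted p = 0.9995). Tlr3, which senses double-stranded RNA, had 4.12 ± 0.99 against 2.74 ± 0.74 CPM with the same adjusted p. The receptors Tnfrsf1a, for TNF, and Il1r1, for IL-1, stood at 37.4 to 54.8 and 72.6 to 160 CPM over the 8 libraries.

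The 8 other genes of the kinase, Rel and IkB families had 6 tested members, of which 6 had estimates below 0 and 0 passed the test (median log2 fold change −0.26). Those with the smallest p were Bcl3 (log2 fold change −0.56 ± 0.33 SE), Ikbke (−0.45 ± 0.35) and Ikbkg, the regulatory subunit NEMO (−0.30 ± 0.23). Chuk, the gene of IKK-alpha, was at 87.8 to 127 CPM. Of 12 feedback and deubiquitinase genes, 9 were tested, with 5 estimates above 0 and 4 below and 0 called in edgeR (median 0.09). The smallest p among them was that of Commd1, which limits p65, with a log2 fold change of 0.25 ± 0.19 (SE).

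Of 22 known NF-kB target genes, 9 were expressed highly enough to be tested, 0 were called in edgeR, and the median log2 fold change was −0.11, with 4 estimates above 0 and 5 below. The cytokine genes Tnf, Il6 and Il1b had at most 0.183, 0.457 and 0.67 CPM in any library. Those with the smallest p were Lcn2 (log2 fold change 2.55 ± 1.28 SE), the growth arrest gene Gadd45b (−0.99 ± 0.61) and Cxcl1 (−0.86 ± 0.61). Sod2, the mitochondrial superoxide dismutase, had 119 to 168 CPM.

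Immediate early genes had 10 of 11 estimates below 0, a median log2 fold change of −1.21 and 0 called in edgeR. At an unadjusted p under 0.05, 7 were lower with AAV-Trib3, against 1.78% of all genes. The smallest p were those of Ier2 (log2 fold change −1.29), the AP-1 subunit gene Junb (−1.21) and the transcription factor gene Egr1 (−2.02). Their summed level was 1210, 620, 758 and 1850 CPM in AAV-GFP and 450, 537, 642 and 462 CPM in AAV-Trib3. AAV-GFP replicates 1 and 4 were high, and AAV-GFP replicate 2 lay below AAV-Trib3 replicate 3.

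Acute phase genes had 10 of 11 estimates above 0, a median log2 fold change of 0.63 and 0 called in edgeR. At an unadjusted p under 0.05, 4 were higher with AAV-Trib3, against 1.36% of all genes. The smallest p were those of Saa3, Saa2 and Orm2, which encode secreted acute phase proteins. Saa2 stood at 36.9, 21.9, 149 and 18.7 CPM in AAV-GFP and at 2160, 16.6, 18.6 and 2410 CPM in AAV-Trib3. Orm2 stood at 19.6, 63.7, 9.60 and 11.2 CPM in AAV-GFP and at 686, 16.3, 12.5 and 429 CPM in AAV-Trib3. Saa3 stood at 2.35, 3.51, 4.84 and 4.88 CPM in AAV-GFP and at 68.0, 5.50, 3.74 and 11.6 CPM in AAV-Trib3. The high values of Saa2 and Orm2 were those of AAV-Trib3 replicates 1 and 4, and replicates 2 and 3 were not above the range of AAV-GFP, as for the summed level of the list given above.

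Genes with the profile most like that of Nfkbia, Icam1 and Rela over the 8 libraries were found by the root-mean-square difference of log2 CPM after centring each gene on its mean, among 9928 genes. For Nfkbia, whose own root-mean-square deviation was 0.359, they were Cyth1 (difference 0.12), Zbtb2 (0.136) and Fam151b (0.144). Cyth1 stood at 24.1, 39.9, 38.7 and 22.2 CPM in AAV-Trib3 replicates 1 to 4, high and low in the same libraries as Nfkbia. For Icam1, with a deviation of 0.487, they were Tbl1xr1 (0.144), Tcf7 (0.159) and Lmln (0.187). Tbl1xr1, a subunit of a nuclear corepressor complex, stood at 28.7, 12.7, 11.4 and 25.2 CPM in AAV-Trib3 and at 15.5 to 17.5 CPM in AAV-GFP. For Rela, with a deviation of 0.20, they were Cand1 (0.049), Lig4 (0.0523) and Supt5 (0.0619). These are the nearest of many genes and describe these libraries.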

How the data were processed

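Libraries were grouped, and numbered 1 to 4 within a group, by the sample titles, and columns were matched by the code in the title. The deposited table holds gene counts (whole numbers, not normalised) and FPKM made by the authors, per the file headers, for 8 libraries. Counts divided by FPKM scaled with the library totals in 5860 genes with over 100 counts. The submitters' processing notes name Trimmomatic and mm10. The sources used here do not name the aligner or the counting program, nor the strand setting or the handling of multi-mapped reads.

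Counts were filtered with edgeR's filterByExpr (11036 genes kept), scaled by TMM (factors 0.699 to 1.15) and tested with edgeR's quasi-likelihood F test (robust), with Benjamini-Hochberg adjustment over all genes and a threshold of 0.05. Each SE is the absolute log2 fold change divided by the square root of its F value. The 2 ratios used a pseudocount of 0.5 and exact two-sided permutation tests over 70 relabellings. Alternatives were other scalings and filters, DESeq2 (no independent filtering), limma-voom, robust estimation off, a replicate block and each library left out. The procedure was tested on simulated counts with 200 changed genes. It called 67 of 100 genes with a log2 fold change of 1 in either direction and 99 of 100 with 2. It also called 6 unchanged genes. Low genes such as Tnfaip3 were not among those changed. The simulated counts used the dispersion trend alone and were drawn independently for each gene. Gene-specific spread and differences shared by many genes were thus left out, and the rates can lie above those for the real libraries. In the real libraries Trib3, with a log2 fold change of 4.17, was not called in edgeR's main fit. Replicates differed beyond sampling noise (chi-square per degree of freedom 17.1 to 211). Total counts ran from 11350442 to 15361128, which limits low genes such as Relb.

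The 10 genes and the lists were chosen with earlier results of these data known. The rule named all 10 genes, up to 3 tested genes with the smallest unadjusted p per pathway list, the 3 nearest profiles of Nfkbia, Icam1 and Rela, and Trib3. Genes given by their range of levels were named outside it, after values were seen. The same holds for list members, other than Lcn2, set beside the Icam1 split. Software was R 4.3.3, edgeR 4.0.16, limma 3.58.1, DESeq2 1.42.0, Python 3.11.15, scipy 1.17.1 and matplotlib 3.10.9.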

Additional observations from a re-analysis of the deposited data

Results flagged for a closer look

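Nfkbib in AAV-GFP replicate 1, at 16.6 CPM, lay far from the other 3 libraries of its group. Its gap to the nearest of them took 0.852 of the group's range, against Dixon's critical value of 0.829 for 4 samples. It was the only such value among 24 groups examined, where chance gives about 1 in 20.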

How the results depend on the processing

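None of the 9 tested NF-kB genes was called in edgeR, DESeq2 or limma-voom under any of 16 alternatives, and their smallest unadjusted p was 0.0366 (Nfkb2 without AAV-Trib3 replicate 3). Over all genes, DESeq2 called 7, and leaving out 1 library gave 0 to 3 (3 without AAV-GFP replicate 3). Signs of small estimates changed. With limma-voom the log2 fold change was −0.00497 for Icam1 and 0.0618 for Tnfaip3, and with library size alone it was 0.0224 for Nfkb1. With 1 library left out it ran from −0.20 to 0.29 for Icam1, −0.063 to 0.0994 for Nfkb1, −0.12 to 0.22 for Nfkbia, −0.18 to 0.0479 for Nfkbib and −0.28 to 0.38 for Tnfaip3. The difference in the ratio of Nfkbia to Rela ran from −0.0492 to 0.27. The cause of these sign changes was not tested. Estimates of Rela, Nfkb2, Nfkbiz and Ikbkb and the ratio of noncanonical to canonical subunits (−0.73 to −0.31) kept their sign in every alternative run. The labels do not say that the numbers pair libraries. Libraries of one number did not deviate together between the groups (correlations −0.267 to −0.0319), which cannot show whether they were handled together. With the replicate block, log2 fold changes were −0.0368 for Icam1, 0.00406 for Nfkb1 and 0.0469 for Tnfaip3, and 0 genes were called. Relb and Tnfaip3 had the lowest mean CPM of the 10 genes (0.72 and 3.05 over the 8 libraries). The part of depth in their spread was not tested.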
